A study of Mus musculus with 2 samples.

Results

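Immunity-related GTPases (IRGs) were examined in activated mouse macrophages. The 6 genes were chosen by symbol in the deposited tables: Irgm1, Irgm2 and Igtp, known as the GMS regulators, and Iigp1, Tgtp1 and Ifi47, known as GKS effectors. All 6 were found among the 16263 genes of each table, and all 6 passed the filter of 1 FPKM or more in at least 1 library (FPKM, a level corrected for transcript length and library size). The tested library came from SIRPα-KO mice (genotype SIRPalpha-/-) and the other from wild-type (WT) mice, both of the C57BL/6 strain by the labels. Macrophages of both genotypes were grown from bone marrow over 5 days with M-CSF, a macrophage growth factor. Both received IFNγ at 20 ng/ml and LPS at 100 ng/ml for 6 h together with mCD47.ex, a reagent the labels do not describe further, so neither library is an unstimulated control. Cells of 5 mice per genotype were pooled before extraction, which leaves 1 library per genotype, no replicate error and no test, and every difference below describes these 2 libraries only.

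IRG proteins are interferon-inducible GTPases that let mouse cells resist vacuolar pathogens such as Toxoplasma and Chlamydia. GKS proteins load onto the membrane of the pathogen's vacuole in their GTP-bound form and break it. GMS proteins sit on the cell's own membranes and hold GKS proteins in the inactive, GDP-bound state there, so the balance of both subfamilies is a known feature of the system. The subfamily names are the amino acids at the end of the G1 motif, the loop that grips the nucleotide's phosphates: lysine in GKS proteins and methionine in GMS proteins.

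The coding stretch of this motif is shown because it defines the contrast between the subfamilies. Each stretch is 24 bases of a GENCODE M21 transcript (GRCm38), written along the coding strand, and the capitals mark the codon for methionine (ATG) or lysine (AAG). The GMS stretches lie at chr11:48866761-48866784 on the minus strand (Irgm1, exon 3 of 3), chr11:58219695-58219718 on the plus strand (Irgm2, exon 2 of 2) and chr11:58206275-58206298 on the plus strand (Igtp, exon 3 of 3). The GKS stretches lie at chr11:48987667-48987690 on the minus strand (Tgtp1, exon 2 of 2) and chr11:49095648-49095671 on the plus strand (Ifi47, exon 3 of 3). In Iigp1 a lysine codon was found at the same place of the motif.
Irgm1: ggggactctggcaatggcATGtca
Irgm2: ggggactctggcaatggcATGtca
Igtp: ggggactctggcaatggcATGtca
Tgtp1: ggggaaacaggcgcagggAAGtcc
Ifi47: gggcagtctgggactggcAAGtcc
The 3 GMS genes carried the same 24 bases here, whereas Tgtp1 and Ifi47 differed from each other as well as from the GMS genes.

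The promoters are shown because all members belong to genes that interferons switch on. RefSeq promoter windows (GRCm38.p6, 250 bases before to 50 after the annotated start) were found for 5 of the 6 members, all but Iigp1. Each was searched on both strands for TTCNNNGAA, the gamma-activated site (GAS) known from promoters that interferon-γ switches on, and for GAAANNGAAA, the core of the interferon-stimulated response element (ISRE) bound by IRF proteins. The 120 bases before the start are printed along the gene's strand with every match in capitals.
Irgm1, chr11:48871421-48871540, minus strand: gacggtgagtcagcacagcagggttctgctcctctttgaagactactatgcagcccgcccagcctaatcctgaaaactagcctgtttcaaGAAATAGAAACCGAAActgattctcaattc
Irgm2, chr11:58214857-58214976, plus strand: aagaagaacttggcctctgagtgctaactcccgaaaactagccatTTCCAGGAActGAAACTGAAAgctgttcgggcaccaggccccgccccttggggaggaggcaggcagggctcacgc
Igtp, chr11:58199436-58199555, plus strand: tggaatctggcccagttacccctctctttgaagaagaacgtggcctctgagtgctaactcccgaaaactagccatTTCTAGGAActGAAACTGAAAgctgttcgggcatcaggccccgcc
Tgtp1, chr11:48992247-48992366, minus strand: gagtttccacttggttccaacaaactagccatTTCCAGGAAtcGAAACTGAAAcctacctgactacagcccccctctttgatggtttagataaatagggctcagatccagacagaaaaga
Tgtp2, chr11:49064213-49064332, minus strand: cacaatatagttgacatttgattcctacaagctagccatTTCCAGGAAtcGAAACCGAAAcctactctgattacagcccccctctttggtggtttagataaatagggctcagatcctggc
Ifi47, chr11:49076467-49076586, plus strand: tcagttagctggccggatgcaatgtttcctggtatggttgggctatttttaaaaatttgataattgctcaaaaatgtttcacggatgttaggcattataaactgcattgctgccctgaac

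In Irgm2, Igtp and Tgtp1 a GAS and an ISRE stood side by side, with 2 bases between them, and Tgtp2, the near-identical copy of Tgtp1, had the same arrangement. Counted from the annotated start, the GAS began at -75 in Irgm2, -45 in Igtp, -88 in Tgtp1 and -81 in Tgtp2. Irgm1 had 2 overlapping ISRE matches, starting at -30 and -24, and no GAS. Neither set of letters was in the window of Ifi47, which says nothing of factors that may bind there. A GAS was present in 8.30% and an ISRE in 3.44% of the 32851 promoters of the table. The tandem with 2 bases between occurred in 5 of the 32851 (0.0152%): Irgm2, Igtp, Tgtp1, Tgtp2 and Gm12185, all of them IRG genes. This arrangement was noticed in the members before it was counted, and some of these promoters share longer runs: the windows of Igtp and Irgm2 had a run of 61 identical bases, and those of Tgtp2 and Gm12185 a run of 114.

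**Figure D1:**
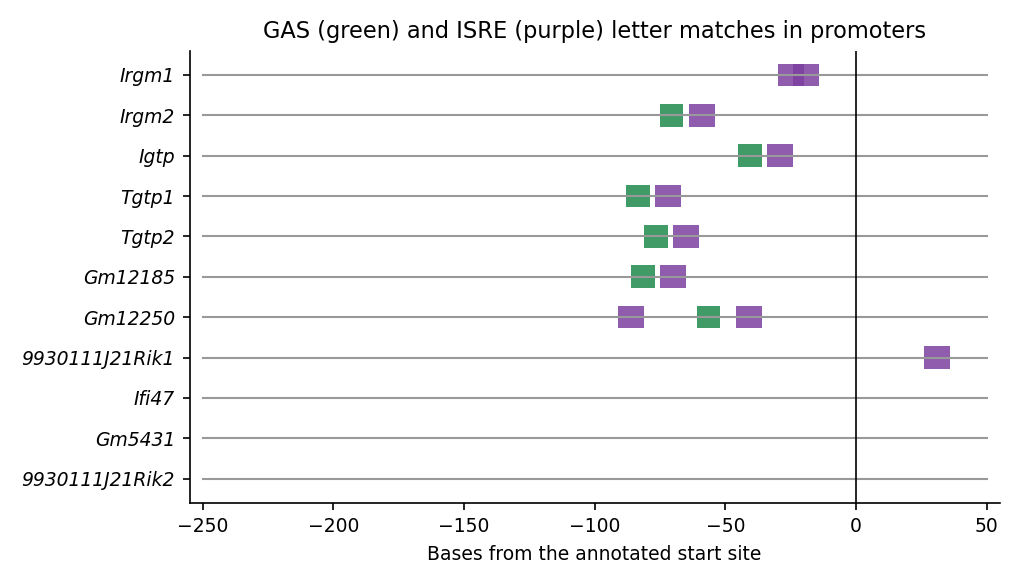
Positions of GAS (green) and ISRE (purple) letter matches in the 300-base promoter windows of 11 IRG genes, in bases from the annotated start site (vertical line at 0). In Irgm2, Igtp, Tgtp1, Tgtp2 and Gm12185 a GAS is followed by an ISRE, Irgm1 has ISRE matches alone, and Ifi47, Gm5431 and 9930111J21Rik2 have neither.

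All 6 genes were abundant in both libraries, and none differed 2-fold. Over all 10092 genes kept, 7.73% differed at least 2-fold in either direction, 3.43% higher and 4.3% lower in SIRPα-KO, on the scale of log2(FPKM + 1). Among the 867 genes that reached 100 FPKM in either library, a level that every member also reached, 11.1% differed 2-fold, 3.11% higher and 7.96% lower. With a limit of 1.5-fold, 1 member was higher in SIRPα-KO (Iigp1) and 1 lower (Tgtp1), where 21.2% of all genes differed, 10.9% higher and 10.2% lower. Neither call was firm: rescaling the libraries by median-of-ratios or by a trimmed mean took Iigp1 to a log2 ratio of 0.53 or 0.54, short of 1.5-fold, and Tgtp1 summed with its near-identical copy Tgtp2 was at -0.33, also short of it. The median log2 ratio of the 6 was 0.08, and that of all genes kept was 0.06. The members' ratios ran from -0.77 to 0.60. In bulk RNA of pooled cells, fewer cells of a type and less RNA per cell cannot be told apart.

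Irgm1, the regulator found at the Golgi and on lysosomes and phagosomes, was at 619.9 FPKM in SIRPα-KO and 661 FPKM in WT. Irgm2, which sits mainly at the Golgi, was at 191 FPKM in SIRPα-KO and 159.7 FPKM in WT. Igtp, also called Irgm3 and found at the endoplasmic reticulum, was at 494 FPKM in SIRPα-KO and 449 FPKM in WT. The 3 regulators thus lay close to equality, with log2 ratios of SIRPα-KO over WT of -0.09 for Irgm1, 0.26 for Irgm2 and 0.14 for Igtp. Among all genes kept, these ratios stood at the percentiles 35.1, 69.6 and 58.6 in the same order of genes.

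Iigp1 (Irga6), a much studied effector that coats the Toxoplasma vacuole, was at 1365 FPKM in SIRPα-KO and 898 FPKM in WT. Tgtp1 (Irgb6), an effector that reaches that vacuole early, was at 171 FPKM in SIRPα-KO and 292 FPKM in WT. Ifi47 (Irgd), an effector of the same coat, was at 708 FPKM in SIRPα-KO and 699 FPKM in WT. The 3 effectors therefore spread in both directions: Iigp1 was 1.52 times its WT level, Tgtp1 was lower by a factor of 1.71, and Ifi47 differed by a factor of 1.01. Their log2 ratios of 0.60, -0.77 and 0.02 stood at the percentiles 89.7, 6.81 and 45.9 of all genes. Either rescaling gave Ifi47 the opposite sign (-0.05 with either), while the signs of the other 5 held under both.

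**Figure D2:**
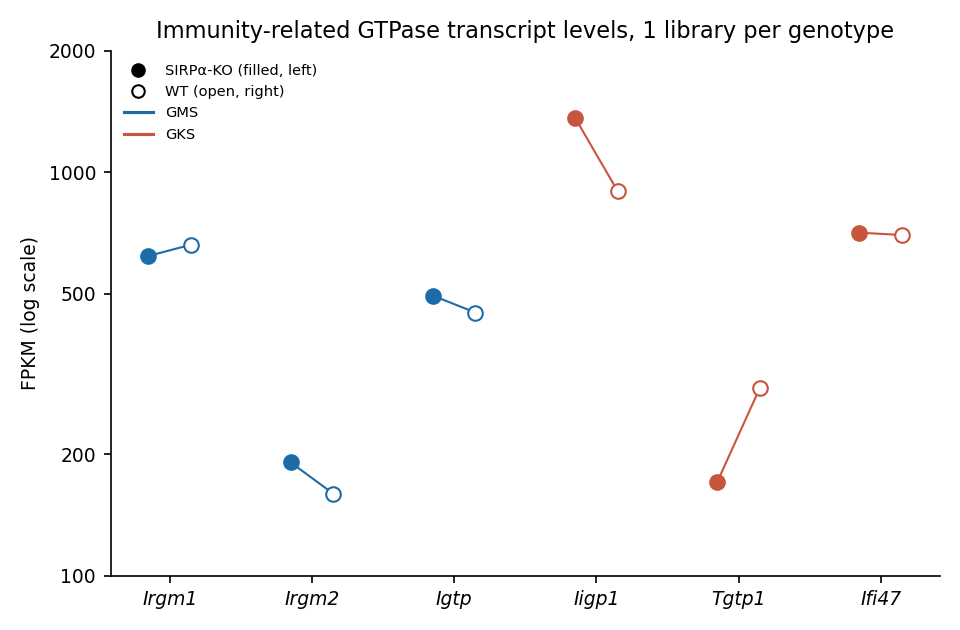
FPKM (log axis) of the 6 members in the SIRPα-KO library (filled, left of each pair) and the WT library (open, right), with GMS regulators in blue and GKS effectors in red. Iigp1 (1365 and 898 FPKM) and Tgtp1 (171 and 292 FPKM) have the steepest lines, in opposite directions.

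Read counting sets a narrow error on these values. Estimated from the step between low values, the libraries held about 11000000 reads in SIRPα-KO and 11200000 in WT, and the members about 5297 to 46873 reads in SIRPα-KO and 6187 to 31384 in WT. Exact 95% binomial intervals of the fold, SIRPα-KO over WT, were 1.5 to 1.54 for Iigp1, 0.56 to 0.60 for Tgtp1 and 0.99 to 1.04 for Ifi47. Those of the regulators were 0.92 to 0.96 for Irgm1, 1.16 to 1.24 for Irgm2 and 1.07 to 1.13 for Igtp. These intervals cover counting error only, and take the estimated reads of a gene as its own. For Tgtp1 this cannot be assumed, because most of its sequence also occurs in Tgtp2. The spread between mice, cultures and library preparations was not measured and can be wider.

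By level, the order in SIRPα-KO was Iigp1, Ifi47, Irgm1, Igtp, Irgm2 and Tgtp1, and in WT it was Iigp1, Ifi47, Irgm1, Igtp, Tgtp1 and Irgm2. Only the last places differed. Iigp1 ranked 33rd of all 16263 genes in SIRPα-KO and 66th in WT, and Ifi47 ranked 80th in SIRPα-KO and 82nd in WT. Tgtp1 ranked 456th in SIRPα-KO and 254th in WT, whereas Irgm2 ranked 392nd in SIRPα-KO and 508th in WT. Ifi47 and Irgm1 were the closest neighbours in the order of WT, where Ifi47 was 1.06 times Irgm1, and Irgm2 and Tgtp1 in that of SIRPα-KO, where Irgm2 was 1.12 times Tgtp1. With 1 library each, whether neighbours differ beyond the spread between samples cannot be given. The highest member exceeded the lowest 8.0 times in SIRPα-KO and 5.62 times in WT.

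**Figure D3:**
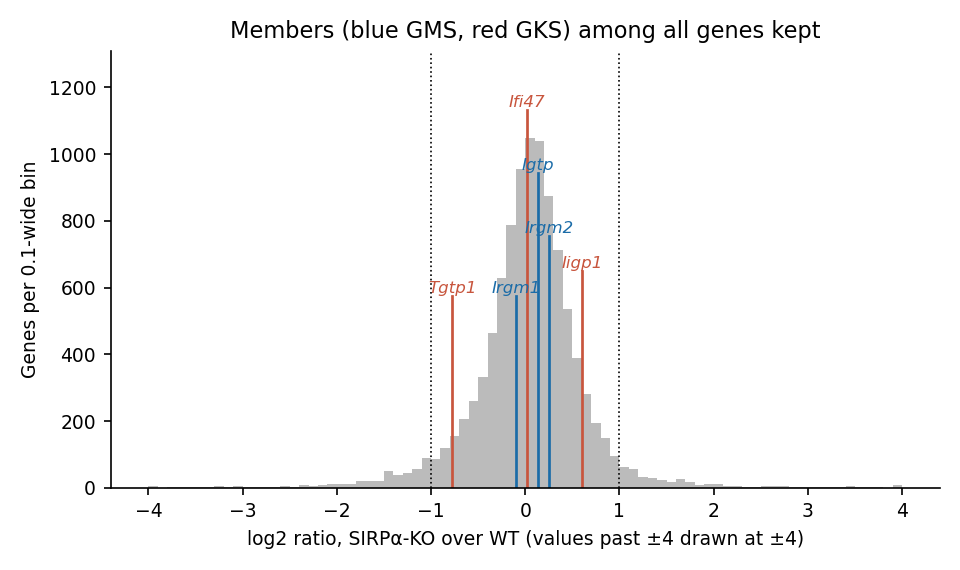
Number of genes (y axis, bins of 0.1) by log2 ratio of SIRPα-KO over WT for the 10092 genes kept, with the 6 members as vertical lines (GMS blue, GKS red, line height has no meaning) and dotted lines at a 2-fold difference. The 3 GMS genes and Ifi47 lie in the central mass, and Tgtp1 and Iigp1 lie on its shoulders inside the 2-fold lines.

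The GMS regulators were set against the GKS effectors. GMS levels summed to 1305 FPKM in SIRPα-KO and 1269.7 FPKM in WT, while GKS levels summed to 2244 FPKM in SIRPα-KO and 1888 FPKM in WT. There were thus 1.72 GKS transcripts per GMS transcript in SIRPα-KO and 1.49 in WT, by FPKM. GKS genes made up 63.2% of the members' summed level in SIRPα-KO and 59.8% in WT, and Iigp1 alone made up 38.5% in SIRPα-KO and 28.4% in WT. Without Iigp1 the ratio of GKS to GMS was 0.67 in SIRPα-KO and 0.78 in WT, so that the direction of the difference between libraries turned. The same ratio from geometric means, which weigh each gene equally, was 1.41 in SIRPα-KO and 1.57 in WT, also in the opposite direction. Leaving out any single member other than Iigp1 kept SIRPα-KO above WT, with 1.59 in SIRPα-KO and 1.26 in WT without Tgtp1. Grouping all family genes by motif kept it too, at 2.83 in SIRPα-KO and 2.5 in WT. That grouping still holds Iigp1, and the ratio of the wider family without Iigp1 was not computed.

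The typical ratio hardly separated the subfamilies. The median log2 ratio of SIRPα-KO over WT was 0.14 for GMS genes and 0.02 for GKS genes, a difference of 0.12. The difference was -0.17 without Tgtp1, 0.52 without Iigp1 and 0.0036 without Irgm2, so its sign and size rested on single genes. The 3 GMS ratios spanned 0.35 on the log2 scale and the 3 GKS ratios 1.38. The lower end of the GKS span was Tgtp1 at -0.77, a gene that could not be read apart from Tgtp2. The sum of that pair was at -0.33. With 3 genes on each side, both spans describe the genes listed and rest on their extremes.

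Tgtp1 could not be read apart from its copy. Of the 50-base words of its transcript, 89.4% also occurred in Tgtp2, its neighbour on chromosome 11, which was at 508 FPKM in SIRPα-KO and 563 FPKM in WT. Tgtp1 took 25.2% of the summed level of the pair in SIRPα-KO and 34.1% in WT. The sum of both was 678 FPKM in SIRPα-KO and 855 FPKM in WT, a log2 ratio of -0.33, or 1.26-fold lower in SIRPα-KO. How the authors assigned reads that fit both copies is not given in the sources used here, and Tgtp1 alone is uncertain for that reason. The other members shared fewer words with any other gene of the tables: 12.3% for Igtp, 6.86% for Irgm2, 3.71% for Ifi47, 2.83% for Iigp1 and 0.81% for Irgm1.

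The deposited tables give the members the same orthology terms as 10 further genes, 16 in all, and these show how the wider family behaved. None of the 16 differed 2-fold, where 7.73% of all genes kept did. Together they made up 1.15% of the summed FPKM in SIRPα-KO and 1.0% in WT (5004 FPKM in SIRPα-KO and 4451 FPKM in WT), and the 6 members made up 0.819% in SIRPα-KO and 0.711% in WT. A GKS motif was found in 12 of the 16 and the GMS motif in Irgm1, Irgm2 and Igtp alone, with no transcript sequence for Iigp1b. The median log2 ratio was 0.10 over the 16, with 12 above 0 and 4 below, and either rescaling left 10 above 0 and 6 below. Before rescaling, more of all genes kept also lay above 0 than below.

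Among the 16 genes, those placed on chromosome 18 stood on one side. Iigp1b had no chromosome in the annotation used and was left out of this grouping, with a log2 ratio of 0.06. Beside Iigp1, 3 further family genes were placed there, all of the GKS kind. F830016B08Rik was at 187 FPKM in SIRPα-KO and 97.0 FPKM in WT. Gm4841 was at 158 FPKM in SIRPα-KO and 108 FPKM in WT. Gm4951 was at 144 FPKM in SIRPα-KO and 101 FPKM in WT. With Iigp1, all 4 had a positive log2 ratio, from 0.50 to 0.94 with a median of 0.57, and all 4 stayed positive under both rescalings (lowest 0.43). F830016B08Rik at 1.93-fold came nearest to the 2-fold limit. These transcripts shared at most 4.62% of their words with any other gene of the tables.

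The 11 family genes of chromosome 11 had a median log2 ratio of 0.04, from -0.77 (Tgtp1) to 0.26 (Irgm2), and 7 were above 0. Among all genes kept, too, more lay above 0 than below. With either rescaling 5 of the 11 were above 0 and their median turned to -0.03. The 8 genes around Irgm1 summed to 2295 FPKM in SIRPα-KO and 2491 FPKM in WT. The 3 genes of the other block, Gm12250 (Irgb10), Igtp and Irgm2, had ratios of 0.19, 0.14 and 0.26. Gm12250, an effector known to act on bacterial membranes in mouse cells, had 165 FPKM in SIRPα-KO and 144 FPKM in WT. The difference between the medians of chromosome 18 and chromosome 11 was 0.54, and 0.51 without Iigp1. The grouping by chromosome was chosen after the values were seen.

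Genes next to the clusters, 3 on each side among the genes kept, were read in the same way. Beside the chromosome 18 cluster their log2 ratios ran from -1.60 to 1.24 with a median of 0.16. Smim3, the nearest on the side of Iigp1, was at 7.61 FPKM in SIRPα-KO and 25.1 FPKM in WT, and Isoc1, the nearest on the other side, at 23.7 FPKM in SIRPα-KO and 20.1 FPKM in WT. Of the 6 neighbours, 5 had a ratio above 0, and Smim3 was the exception. Among all genes kept, too, more lay above 0 than below. Around Irgm1 the neighbours ran from -0.23 to 1.63 and around Igtp from -0.70 to 0.68. Some of these ends came from genes at low levels. The 1.24 was Slc12a2 (2.44 FPKM in SIRPα-KO and 0.46 in WT) and the 1.63 Snord96a (8.72 and 2.15). Around Igtp, the ends were Zfp672 (1.16 FPKM in SIRPα-KO and 2.51 in WT) and Gemin5 (1.44 and 0.52).

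**Figure D4:**
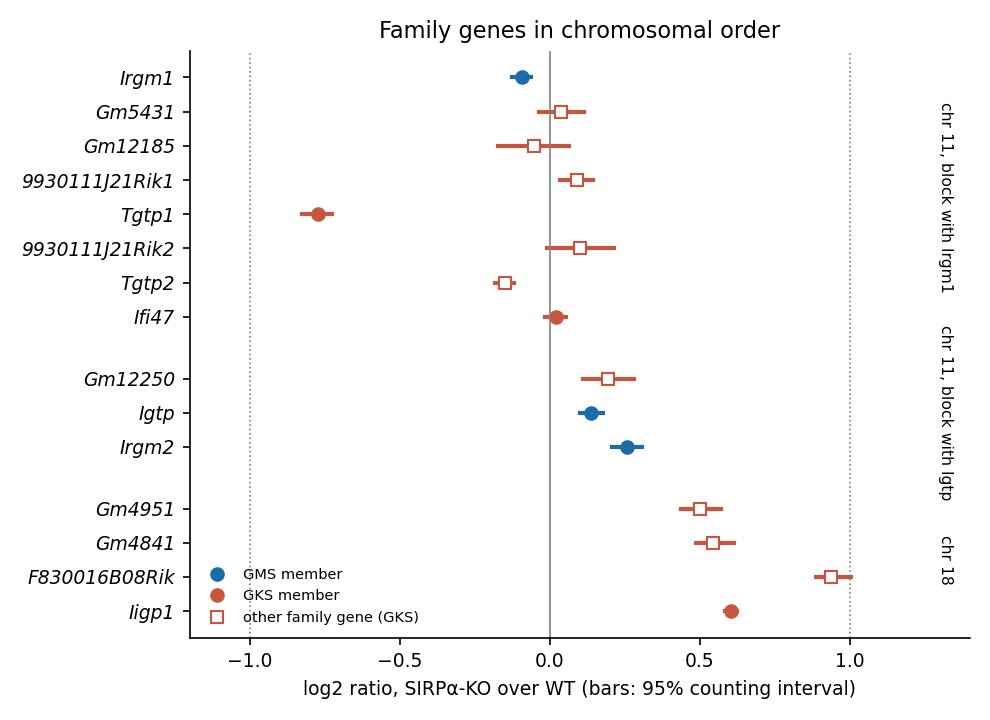
Log2 ratio of SIRPα-KO over WT (x axis) for 15 IRG genes in chromosomal order, by block, with 95% counting intervals as bars, members as filled circles and other family genes as open squares (GMS blue, GKS red). The 4 genes of chromosome 18 lie between 0.50 and 0.94, while on chromosome 11 most genes lie near 0 and Tgtp1 is at -0.77.

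Of the remaining IRG genes, most were close to equal. 9930111J21Rik1 was at 128 FPKM in SIRPα-KO and 120.2 FPKM in WT, and 9930111J21Rik2, which shares 97.9% of its words with it, was at 50.1 FPKM in SIRPα-KO and 46.6 FPKM in WT. Gm5431 was at 91.1 FPKM in SIRPα-KO and 88.6 FPKM in WT, and Gm12185 at 19.3 FPKM in SIRPα-KO and 20.1 FPKM in WT. Iigp1b was low, at 4.01 FPKM in SIRPα-KO and 3.79 FPKM in WT. Irgq, a divergent relative without the orthology terms, was at 1.66 FPKM in SIRPα-KO and 1.95 FPKM in WT. The 5 genes whose promoters hold the GAS and ISRE tandem had ratios of both signs: Irgm2 and Igtp 0.26 and 0.14, Gm12185 -0.05, Tgtp2 -0.15 and Tgtp1 -0.77. Tgtp1 and Tgtp2 could not be read apart, and their sum was at -0.33. Whether the arrangement bears on the ratios was not tested.

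The chain that turns on IRG genes runs through the interferon-γ receptor, the kinases JAK1 and JAK2 and the IRF factors. Of 15 genes of this chain and its brakes, 0 were higher and 0 lower by 2-fold, with a median log2 ratio of -0.07. Over all genes kept, 3.43% were higher and 4.3% lower, so 0 calls in a short list says little. The receptor chain Ifngr1 was at 12.6 FPKM in SIRPα-KO and 9.61 FPKM in WT, and Ifngr2 at 78.8 FPKM in SIRPα-KO and 111 FPKM in WT. Irf1, an interferon-induced factor that binds ISRE sites, was at 606 FPKM in SIRPα-KO and 481 FPKM in WT, and Irf8, the most abundant gene of the list, at 904 FPKM in SIRPα-KO and 1081 FPKM in WT. Irf1 and Irf8 thus had log2 ratios of opposite sign, 0.33 and -0.26. The ligand transcript Ifng was at 3.24 FPKM in SIRPα-KO and 0.52 FPKM in WT, and both cultures had received the cytokine itself. Ifngr1, Ifngr2, Irf1 and Ifng were named after their values were seen.

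Of 20 other genes induced by interferon-γ, 0 were higher and 0 lower by 2-fold, and the median was 0.0040. The most abundant of them, the chemokine gene Cxcl9, had 3349.9 FPKM in SIRPα-KO and 2187 FPKM in WT. Guanylate-binding proteins (GBPs), which act at the same vacuoles, had a median of 0.34 over 11 genes. Of them, 3 were higher and 0 lower by 2-fold, beside 3.43% higher and 4.3% lower over all genes kept. The 3 were Gbp1 (22.2 FPKM in SIRPα-KO and 1.84 in WT), Gbp2 (4938 FPKM in SIRPα-KO and 2417 in WT) and Gbp8 (13.5 FPKM in SIRPα-KO and 5.30 in WT).

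GKS proteins find their target membranes with the help of the ubiquitin-like conjugation genes of autophagy. Of 12 such genes kept (13 listed), 0 were higher and 0 lower, with a median of 0.10, and Gabarap, the most abundant, was at 342 FPKM in SIRPα-KO and 289 FPKM in WT. Genes that mark damaged or IRG-coated vacuoles (genes of the ubiquitin mark, its readers and galectins) had a median of -0.22 over 12 genes, 10 of them below 0, with 0 higher and 0 lower. The very large interferon-inducible GTPases had a median of -0.25 over 6 genes, again with 0 higher and 0 lower. In that list Gm4070, the most abundant, was at 196 FPKM in SIRPα-KO and 167 FPKM in WT, and it alone lay above 0. The other 5 lay below 0. The lowest was Gvin1 (log2 ratio -0.98), at 118 FPKM in SIRPα-KO and 233 FPKM in WT. Ribosomal protein genes, a control list of 30, had a median of -0.06 with 0 called. Beside all these lists, 3.43% of all genes kept were higher and 4.3% lower by 2-fold.

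**Figure D5:**
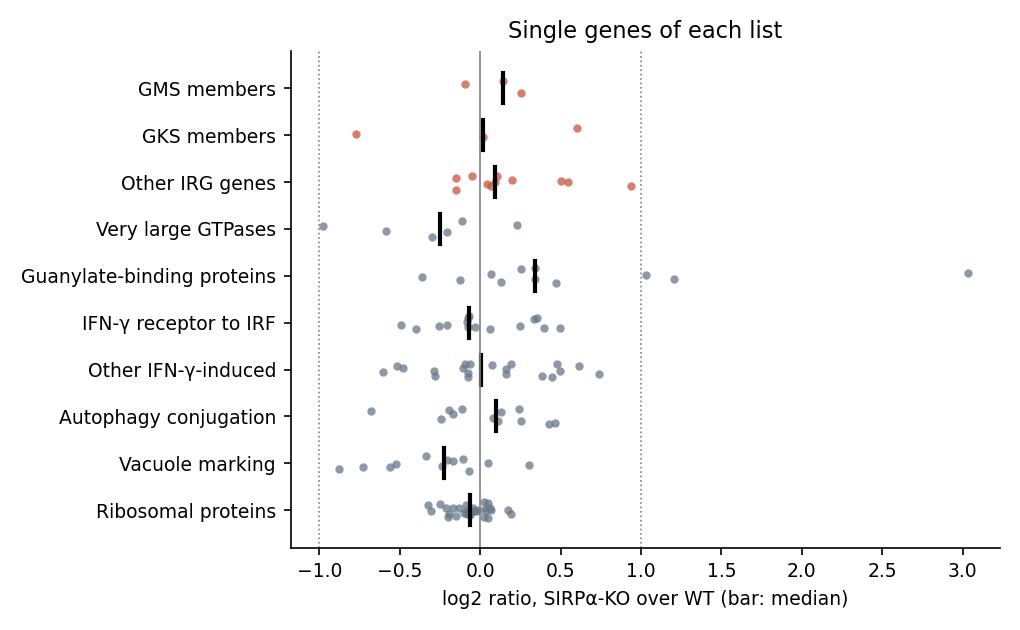
Log2 ratio of SIRPα-KO over WT (x axis) for single genes (points) of each list (rows), with the list median as a black bar and dotted lines at a 2-fold difference. GBPs alone among these lists have points past the 2-fold lines, and the GMS and GKS members lie inside them.

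For each member, the gene outside the family with the most similar levels was found by the distance between log2(FPKM + 1) values in both libraries. These were Phf11b for Irgm1 (608 FPKM in SIRPα-KO and 661 in WT), Tagln2 for Irgm2 (190.5 FPKM in SIRPα-KO and 163 in WT) and Tapbp for Igtp (479 FPKM in SIRPα-KO and 425 in WT). For the effectors they were Srgn for Iigp1 (1408 FPKM in SIRPα-KO and 951 in WT), Cd14 for Tgtp1 (164 FPKM in SIRPα-KO and 290.2 in WT) and Akr1a1 for Ifi47 (756 FPKM in SIRPα-KO and 697 in WT). Tapbp encodes tapasin, which helps load peptides onto MHC class I, and Cd14 encodes the LPS co-receptor. A likeness over 2 libraries is weak: within a distance of 0.25 there were 2 genes for Iigp1 and 13 to 45 for the other members.

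The libraries differed in other ways that bear on the comparison. Sirpa itself was at 71.5 FPKM in SIRPα-KO and 153.9 FPKM in WT, so transcript remained in the library labelled SIRPα-KO. Of the macrophage markers, all 12 found were kept, with sums of 14759 FPKM in SIRPα-KO and 14639 FPKM in WT, and 1 (Csf1r) was lower by 2-fold. Of 8 neutrophil markers kept, 5 were lower, with sums of 276 FPKM in SIRPα-KO and 528 FPKM in WT. Over all genes kept, 3.43% were higher and 4.3% lower by 2-fold. Dendritic cell markers summed to 187 FPKM in SIRPα-KO and 54.4 FPKM in WT, with 3 of 6 kept higher and 1 lower, and the defining Flt3 and Zbtb46 were under 1 FPKM in both. T and NK cell markers summed to 24.9 FPKM in SIRPα-KO and 19.5 FPKM in WT, with 7 of 9 under 1 FPKM in both and Cd3g listed at 0 in both. Xist was at 0.91 FPKM in SIRPα-KO and 47.5 FPKM in WT, and the Y-linked Ddx3y at 11.6 FPKM in SIRPα-KO and listed at 0 in WT, so genotype and sex of the pooled mice cannot be told apart. The part of these differences in the IRG values was not tested.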

How the data were processed

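The authors deposited 1 table per library with 1 value per gene. These deposited values were taken as FPKM, a unit inferred from the values because the headers name none: low values step with transcript length, and the sums differ (433460 in SIRPα-KO and 444294 in WT). The submitters' processing notes name mm9, R 3.3.3 and DESeq2 without roles. The aligner, the counter and strand use: not given in the sources used here. Depth was estimated from low values of genes with 1 transcript, of which 72.0% in SIRPα-KO and 73.1% in WT lay within 0.15 of a whole read, too few for a test on reads. The depth was chosen to make these shares largest, so they are no separate check of it. With lengths shuffled between genes the shares were 29.6% in SIRPα-KO and 30.8% in WT.

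Ratios are SIRPα-KO over WT of FPKM + 1 on the log2 scale, which understates differences at low levels. The filter was 1 FPKM in at least 1 library and the limit for calls 2-fold. Estimated reads are FPKM times transcript length times depth, with exact Clopper-Pearson intervals. Python 3.11.15 with numpy 2.4.6, pandas 2.3.3, scipy 1.17.1 and matplotlib 3.10.9 was used, and the call and motif steps were tested on simulated data.

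Members and lists were chosen with earlier results of these data known. Named genes were Sirpa, Cd47 (188 FPKM in SIRPα-KO and 142 in WT), all IRG genes, called and most abundant list genes, and the nearest gene to each member, some of which are not reported here. GRCm38 annotation, a later build than mm9, gave lengths, sequences and gene order. Alternatives were another pseudocount, filters, fold limits, scalings, members left out and other groupings.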

Additional observations from a re-analysis of the deposited data

How the results depend on the processing

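No member was past 2-fold (0 of 6) with a pseudocount of 0.1, with no filter, with a minimum of 5 FPKM or with either scaling, and 2 were past 1.5-fold (Iigp1 and Tgtp1). With the 1.5-fold limit and either scaling together, an alternative chosen after seeing the data, 1 was past it (Tgtp1), since Iigp1 was then at 0.53 or 0.54. Summed with Tgtp2, Tgtp1 was at -0.33, short of 1.5-fold. Over all genes the main count of 780 calls (346 higher and 434 lower) became 1265 (589 and 676) with a pseudocount of 0.1 and 2136 (1104 and 1032) with the 1.5-fold limit. Median-of-ratios scaling gave 783 calls (302 and 481) and the trimmed mean 782 (303 and 479), both lowering the log2 ratios of the abundant members by about 0.07 and those of low genes by less. The difference between GMS and GKS median log2 ratios, 0.12, was 0.12 with the other pseudocount and both scalings. It was 0.18 without Irgm1, 0.0036 without Irgm2, 0.062 without Igtp, 0.52 without Iigp1, -0.17 without Tgtp1, 0.22 without Ifi47 and 0.043 with all family genes grouped by motif, each from fewer or more genes. In SIRPα-KO the GKS to GMS ratio of summed levels, 1.72, was 3.27 without Irgm1, 2.01 without Irgm2, 2.77 without Igtp, 0.67 without Iigp1, 1.59 without Tgtp1, 1.18 without Ifi47, 2.83 with all family genes and 1.41 from geometric means. In WT the ratio of 1.49 was 3.10, 1.70, 2.30, 0.78, 1.26, 0.94, 2.5 and 1.57 under the same alternatives in the same order. No paired analysis was possible because each genotype has 1 pooled library, and no library could be left out. Depth does not limit the members, which had at least 5297 estimated reads in SIRPα-KO and 6187 in WT, but it limits Irgq, with 111 in SIRPα-KO and 133 in WT. The 5297 reads are those of Tgtp1, which could not be read apart from Tgtp2.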
